A study of Mus musculus with 17 samples.

Results

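Immunoglobulin genes are assembled in B cells from separate V, D and J segments, which are then joined to a constant region. Somatic calls in 8 immunoglobulin genes and in Adam6b, a gene that lies inside the heavy-chain locus, were examined in an exome study of mouse pancreatic tumours. The members were all lines of the deposited table whose gene name was Ighm, Ighj4, Ighv2-2, Ighv1-15, Ighv1-18, Ighv1-21-1, Igkj4, Iglv1 or Adam6b. They made up 9 of 209 genes with a call and 35 of 390 calls. The genes were chosen by the presence of these calls in mouse 1, seen in earlier results, so their number and their mouse are given as a description and not tested.

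The study concerned neuroendocrine tumours that start from pancreatic alpha cells when GCGR, the receptor for glucagon, loses its function. It sequenced the exomes of 11 pancreatic tumours and of 6 pancreatic tissue controls, 1 control for each of 6 mice. The groups used here were the 2 tumours of mouse 1, the 9 tumours of the other 5 mice, and the control of each mouse. No treatment was given and all animals had standard chow. The sources used here state no genotype, strain, sex or age, and the libraries came from bulk DNA, so the labelled tissue could not be checked against expressed markers. Each call is a site where a tumour differed from the control of the same mouse, and its allele fraction is the share of reads with the alternate base. Depth is unknown, so no interval can be given for an allele fraction, and the fraction is a share of reads, not of cells.

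In activated B cells the rearranged V(D)J exon gains changes that begin with cytosine turned into uracil. Error-prone repair of these lesions then spreads changes to neighbouring bases, A and T included. This somatic hypermutation is known for closely spaced single-base changes, for an excess of transitions over transversions, for more changes at A than at T on the coding strand, and for a preference for A that follows A or T. It is strongest in V and J segments and largely spares the constant region.

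All 35 calls lay in mouse 1. Tumour 1 had 15 of them among 108 calls (13.9%, exact 95% binomial interval 7.99 to 21.9), and tumour 2 had 20 among 125 (16%, 10.1 to 23.6). They occupied 20 distinct sites of 142 in mouse 1 (14.1%, 8.82 to 20.9). The 5 other mice had 0 of 122 sites, counting each site once per mouse, which allows a share of up to 2.98% (exact 95% interval). Their single tumours had 5 to 43 calls. By the exact interval, 0 calls allowed a share of up to 8.22% in tumour 1 of mouse 2. The limit was 52.2% in tumour 2 of mouse 6. These intervals and limits cover counting error only. Both tumours came from 1 animal, so the animal is the only replicate, and no test between mice or between tumours was made. At an allele fraction of at least 20% in a tumour 3 sites were left, all in Adam6b.

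The table gives the changed base at every site, and the codon around it follows only where the coding change and the amino acid change together fix all its letters. This was so for 5 sites, shown here because they are the sites whose whole codon is known. The capital marks the changed base on the coding strand, 5′ to 3′.
Ighj4 M4V: Atg to Gtg
Ighv2-2 I111L: Ata to Tta
Ighv1-15 E73D: gaA to gaC
Ighv1-15 W3G: Tgg to Ggg
Adam6b I205R: aTa to aGa

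The heavy-chain constant gene Ighm (ENSMUSG00000076617) encodes the constant part of IgM. It carried 2 missense sites, 12 bases apart, on chromosome 12. F207L at 113421999 had a fraction of 6.90% in tumour 1 and 12.1% in tumour 2. V211L at 113421987 was called only in tumour 2, at 10.4%. Both fell inside the coding part of the constant region, and the control had no alternate reads at either.

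The heavy-chain joining segment Ighj4 (ENSMUSG00000076618) carried 2 missense sites, 2 bases apart, called only in tumour 2. A3V at 113428558 was at 13.2% and M4V at 113428556 at 10.3%, with a control fraction of 0 at both. A J segment supplies the last residues of the variable domain. The 2 sites changed neighbouring codons of a segment of 16 residues, and tumour 1 had no call in it.

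The kappa light-chain joining segment Igkj4 (ENSMUSG00000076607) carried 1 site, N11D, at 70723578 on chromosome 6. Its fraction was 17.0% in tumour 1 and 19.0% in tumour 2, with 0 in the control. The change fell in the last of the 11 residues annotated for the segment. It had the highest fraction of the 15 sites called in tumour 1. The deposited tier score of the call, which is 1 or 2, was 2 in both tumours.

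Among heavy-chain V segments, which encode most of the antigen-binding variable domain, Ighv1-15 (ENSMUSG00000103254) had the most sites, 5 within 295 bases of chromosome 12. Counted from the A of the start codon, the sites lay 6, 126, 207, 263 and 301 bases along the gene. W3G, in the leader peptide at 114657780, was at 9.34% in tumour 1 and 14.8% in tumour 2. The splice-region change c.47-3T>A at 114657660, in the intron between leader and V exon, was at 6.09% and 9.93%. K42R at 114657579 was at 4.52% and 3.88%, the only shared site of the 9 genes with a higher fraction in tumour 1. V61L at 114657523 and E73D at 114657485 were called only in tumour 2, at 5.21% and 3.88%. In tumour 2 the 2 sites nearest the start codon had higher fractions than the sites further along the V exon. In tumour 1 they were above K42R, the only site further along that was called there. The control had alternate reads at V61L, at 0.203%, and at no other site of the segment.

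Ighv1-18 (ENSMUSG00000076695), a V segment of the same family, carried I70V at 114682775 and T49P at 114682838. I70V was at 13.0% in tumour 1 and 17.4% in tumour 2. T49P was at 10.5% in tumour 1 and 17.2% in tumour 2, with 0.313% in the control. The 2 sites were 63 bases apart, and in tumour 2 their fractions were close to each other. Ighv1-21-1 (ENSMUSG00000102678), annotated as a V pseudogene, carried 1 splice-region change at 114736630, at 14.0% in tumour 1, 16.4% in tumour 2 and 0.141% in the control.

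Ighv2-2 (ENSMUSG00000096464) belongs to another V family and lies nearer to the joining segments. I111L at 113588286 was at 3.64% in tumour 1 and 13.5% in tumour 2. A81T at 113588376 was at 4.62% in tumour 1 and 10.8% in tumour 2. The control was at 0 for both. The fraction in tumour 2 was 3.70 times that in tumour 1 at I111L, the widest ratio among the shared sites of the 9 genes, and 2.33 times at A81T.

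The lambda light-chain V segment Iglv1 (ENSMUSG00000076934) carried 2 sites, 6 bases apart, in the intron before its V exon on chromosome 16. The change at 19085323 hit the splice acceptor, at 14.5% in tumour 1 and 19.8% in tumour 2. The change at 19085329, annotated as splice region, was at 13.6% in tumour 1 and 14.7% in tumour 2. No alternate reads were listed in the control. A single B cell as a rule uses either a kappa or a lambda light chain. Here sites in a kappa and in a lambda segment were called in the same samples. DNA calls from bulk tissue do not show which chain a cell used, or whether the sites lay in the same cells.

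Adam6b (ENSMUSG00000051804) is no immunoglobulin gene. It lies in the heavy-chain locus, between the V and D segments, and encodes a metalloprotease-family protein linked to male fertility in mice. It carried 3 sites on chromosome 12, all called in both tumours and all with a control fraction of 0. The frameshift F113fs at 113489897, a deletion of 1 base, was at 15.3% in tumour 1 and 20.7% in tumour 2. I205R at 113490178 and S206T at 113490180, which are 2 bases apart in neighbouring codons, were both at 13.0% in tumour 1, and at 27% and 27.3% in tumour 2. Their near-equal fractions in each tumour do not show whether the changes sat on the same reads, which the table does not record. These 2 sites had the highest fractions of the 20 in tumour 2. Their tier score was 1 in tumour 1 and 2 in tumour 2, and that of F113fs was 2 in both.

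**Figure D1:**
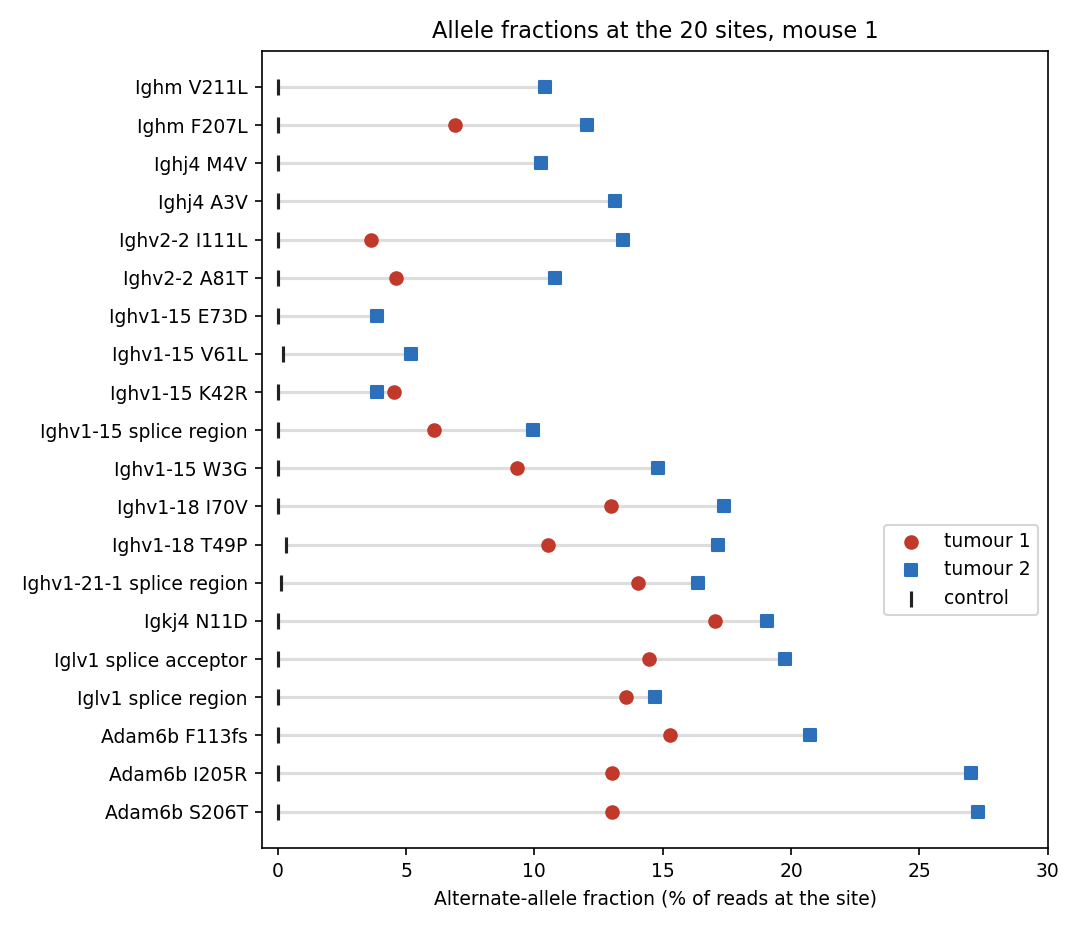
Allele fraction in percent of reads (horizontal axis) at each of the 20 sites (rows, by gene and amino acid or splice change) in tumour 1, tumour 2 and the control of mouse 1. Circles are missing where tumour 1 had no call, and control values lie between 0 and 0.313%.

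Ordered by the mean over its sites, tumour 2 had Adam6b highest at 25.0% ± 3.70 (SD over 3 sites of 1 sample), followed by the single site of Igkj4 at 19.0%. Ighv1-18 (17.3% ± 0.176, 2 sites), Iglv1 (17.2% ± 3.57, 2 sites) and Ighv1-21-1 (16.4%, 1 site) came next, and Igkj4, Ighv1-18 and Ighv1-21-1 each lay within 1 SD of Iglv1. Ighv2-2 (12.1% ± 1.89), Ighj4 (11.7% ± 2.05) and Ighm (11.2% ± 1.17), with 2 sites each, were also within 1 SD of each other, and Ighv1-15 was lowest at 7.55% ± 4.77 over 5 sites. In tumour 1 Igkj4 led at 17.0%. Ighv1-21-1, Iglv1 and Adam6b stood at 14.0%, 14.0% and 13.8%, and Ighv1-18 at 11.7%. Ighm, Ighv1-15 and Ighv2-2 were lowest, at 6.90%, 6.65% and 4.13%. Adam6b was thus highest in tumour 2 and level with Iglv1 and Ighv1-21-1 in tumour 1. The tier score was 2 for Igkj4 in both tumours, and for all calls of Adam6b and Ighv1-21-1 in tumour 2. These SDs are over sites of 1 library, not over replicates.

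The sites were next compared between the tumours. Of the 20, 15 were called in both tumours (75%, exact 95% interval 50.9 to 91.3), 0 in tumour 1 alone and 5 in tumour 2 alone. Of the 122 other sites of mouse 1, 76 were in both (62.3%, 53.1 to 70.9), 17 in tumour 1 alone and 29 in tumour 2 alone. The 5 sites found only in tumour 2 were in Ighm, Ighj4 and Ighv1-15, at 3.88 to 13.2%. Their median was 10.3%, against 16.4% in tumour 2 for the 15 shared sites and 14.8% for the 12 shared sites in immunoglobulin genes. The other sites of mouse 1 had the same order. Their median in tumour 2 was 11.25% over the 29 sites found only there and 15.8% over the 76 shared sites. A site missing from tumour 1 is not shown to be unmutated there, because depth is unknown.

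At the shared sites the fraction was lower in tumour 1 at 14 of 15 (93.3%, exact 95% interval 68.1 to 99.8), and at 58 of 76 other shared sites (76.3%, 65.2 to 85.3). The intervals overlap. Tumour 1 minus tumour 2 had a median of -5.31 percentage points over the 15 sites and ranged from -14.2 at S206T of Adam6b to 0.640 at K42R of Ighv1-15. Over the 76 other sites the median was -3.21 points, with a range from -17.7 to 26.4. Most sites of both sets thus had the lower fraction in tumour 1.

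**Figure D2:**
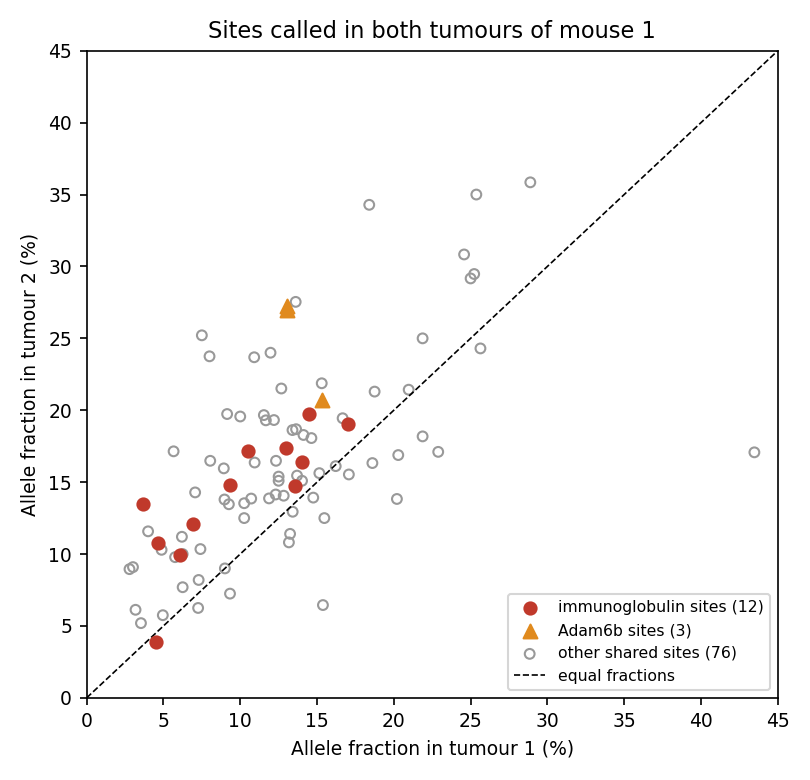
Allele fractions in tumour 1 (horizontal, %) and tumour 2 (vertical, %) for the 91 sites called in both tumours of mouse 1, split into 12 immunoglobulin sites, 3 Adam6b sites and 76 other sites. Points above the dashed line had a lower fraction in tumour 1, as 14 of the 15 immunoglobulin and Adam6b sites did.

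The fractions of the 9 genes lay inside the range of the other sites, which was 2.79 to 43.5% in tumour 1 and 2.07 to 38.5% in tumour 2. In tumour 1 the median was 13.0% over 15 sites, against 11.7% over the 93 other sites. It was 14.1% over 20 sites in tumour 2, against 14.8% over 105 others. With Adam6b left out the medians of the immunoglobulin sites were 9.93% in tumour 1 and 13.2% in tumour 2. By rank, the highest member was Igkj4 N11D at place 19 of 108 calls in tumour 1, and S206T of Adam6b at place 10 of 125 in tumour 2. Alternate reads in the control were listed at 3 of 20 sites (15%, exact 95% interval 3.21 to 37.9), and at 18 of 122 other sites (14.8%, 8.98 to 22.3).

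The spacing of the sites was set beside that of the other sites of mouse 1. Of the 20 sites, 16 had another of the 20 within 100 bases (80%, exact 95% interval 56.3 to 94.3). Of the 122 other sites, 10 had another site within 100 bases (8.20%, 4.00 to 14.6). Without tumour 2 the number was 10 of 15 sites, since Ighj4 and part of Ighm and Ighv1-15 drop out. Within 10 bases lay 6 of the 20 sites, in the pairs of Ighj4, Adam6b and Iglv1. Of the 122 others 0 did, which allows a share of up to 2.98% (exact 95% interval). Of the 9 genes, 7 had more than 1 site, as did 9 of the 110 other genes of mouse 1 (8.18%). The genes were picked for their calls and 7 of them lie in the same locus, so this contrast is a description and not independent of how they were chosen.

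**Figure D3:**
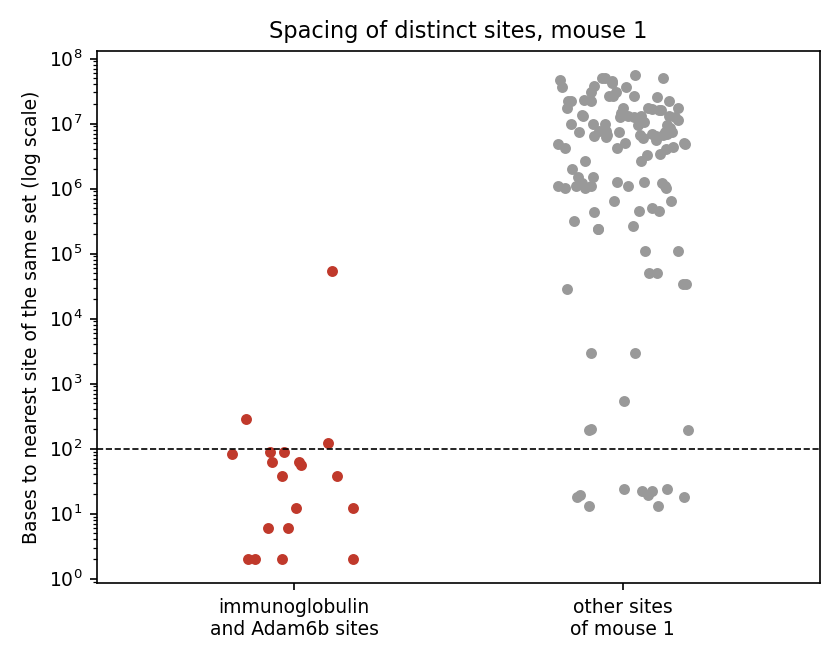
Bases to the nearest site of the same set (vertical, log scale) for the immunoglobulin and Adam6b sites and for the other sites of mouse 1, 1 point per distinct site; the dashed line marks 100 bases. Of the 20 sites, 16 lie under the line, against 10 of 122 others; a site alone on its chromosome has no point.

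Between segments the sites were far apart. On chromosome 12 the 17 sites ran from 113421987 to 114736630, all inside the heavy-chain locus as RefSeq places it on GRCm38 (113258768 to 116009954). Gaps of 6557 bases separated Ighm from Ighj4, 61339 separated Ighj4 from Adam6b and 98106 separated Adam6b from Ighv2-2. A gap of 1069109 bases followed before Ighv1-15, with 24995 from there to Ighv1-18 and 53792 to Ighv1-21-1. No site of another gene was called on chromosome 12 within 2000000 bases of these sites, and the other genes of mouse 1 had 2 sites on that chromosome in all. The 3 sites outside their own gene's RefSeq span were those of the Ighv1-15 leader and intron and that of Ighv1-21-1.

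Outside the 9 genes, the genes of mouse 1 with the most sites were Ptprz1, a receptor phosphatase gene, with 4 sites over 28605 bases, and Pde12, a phosphodiesterase gene, with 3 sites over 554 bases. The other genes with several sites had 2 each. These lay 13 bases apart in Olfr1124, 18 in Cdc42bpg, 19 in Nceh1 and 22 in H2-Ab1. In Gm21738, Sfi1 and Ctnna2 they lay 2912 bases or more apart. Ighv1-15, with 5, had more sites than any of them.

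The 8 immunoglobulin genes had 17 single-base sites and no insertion or deletion. Transitions made up 9 of 17 (52.9%, exact 95% interval 27.8 to 77.0). Of the other sites of mouse 1, 67 of 119 were transitions (56.3%, 46.9 to 65.4), as were 22 of 44 sites of mouse 2 (50%, 34.6 to 65.4) and 31 of 72 sites of mice 3 to 6 (43.1%, 31.4 to 55.3). Mouse 2 is given apart because 30 of its 46 sites had an identifier of a variant database (65.2%). With Adam6b, whose 2 substitutions were transversions, the share was 9 of 19 (47.4%, 24.4 to 71.1). These intervals overlap, and those of the 17 and of the 19 sites reach below and above 50%. Whether transitions exceed transversions was not tested, and the sites are few. T-to-C changes (A-to-G on the other strand) were the most frequent class, with 6 of 17 (35.3%, exact 95% interval 14.2 to 61.7). They made up 33 of 119 other sites of mouse 1 (27.7%, 19.9 to 36.7) and 13 of 44 sites of mouse 2 (29.5%, 16.8 to 45.2). In mice 3 to 6 they made up 9 of 72 sites (12.5%, 5.88 to 22.4). The interval of the 17 sites overlaps each of these. C-to-T and T-to-A and T-to-G changes followed with 3 each (17.6%), and C-to-A had 2 (11.8%). C-to-G had 0, which allows a share of up to 19.5% (exact 95% interval).

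Read on the coding strand, the changed base was A at 9 of the 17 sites (52.9%, exact 95% interval 27.8 to 77.0), G at 4, T at 3 and C at 1. The changed base was A at 36 of 119 other sites of mouse 1 (30.3%, 22.2 to 39.3). Mouse 2 had A at 13 of 44 sites (29.5%, 16.8 to 45.2). Mice 3 to 6 had A at 16 of 72 sites (22.2%, 13.3 to 33.6). Among changes at A or T, A made up 9 of 12 (75%, 42.8 to 94.5) in the immunoglobulin genes and 36 of 66 (54.5%, 41.8 to 66.9) in the other sites of mouse 1. The intervals overlap in each comparison, with the other sites of mouse 1, with mouse 2 and with mice 3 to 6. Of the 9 changes at A, 5 were A-to-G, 2 A-to-C and 2 A-to-T. C and G were changed at 5 of the 17 sites, with the single C in Ighj4. The share of C was 5.88% (exact 95% interval 0.149 to 28.7). C was changed at 25 of 119 other sites of mouse 1 (21.0%) and at 11 of 44 sites of mouse 2 (25%). In mice 3 to 6 it was changed at 23 of 72 sites (31.9%). The share of C was thus lower in the immunoglobulin genes than in each of these sets, but its interval overlaps each of theirs. Adam6b had both of its substitutions at T on its own coding strand, which is opposite to that of the heavy-chain immunoglobulin genes. Read on the coding strand of those genes, both were at A.

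**Figure D4:**
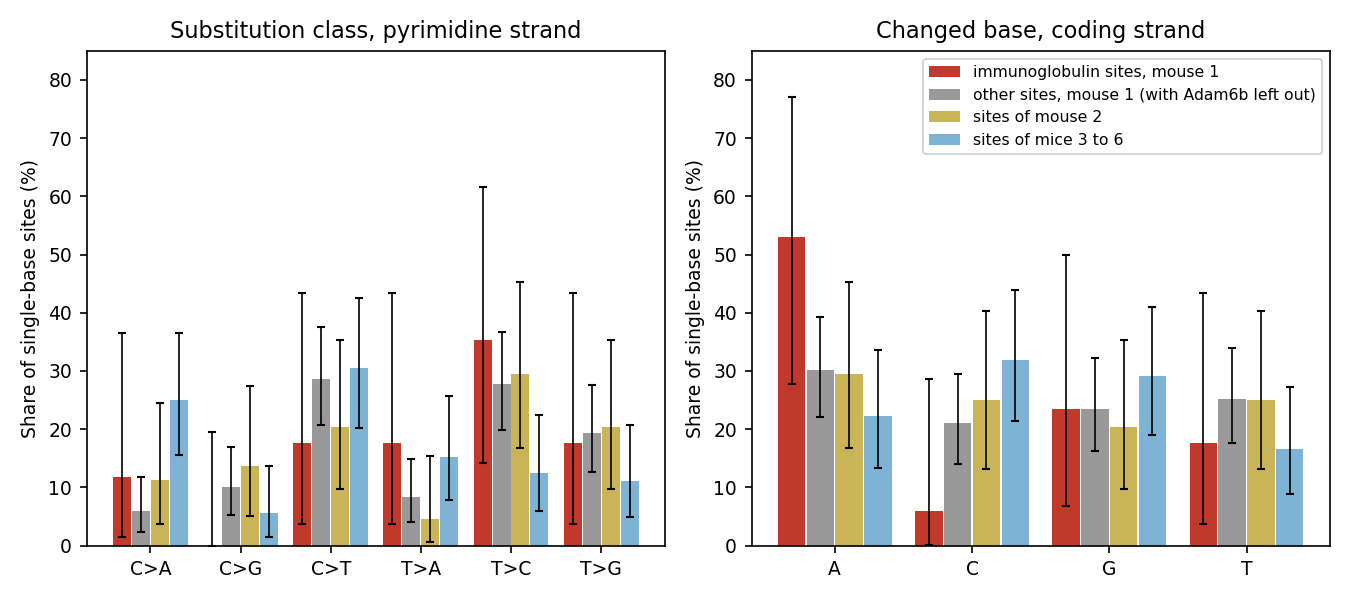
Shares of single-base sites in percent by substitution class on the pyrimidine strand (left) and by the changed base on the coding strand (right), for 17 immunoglobulin sites, 119 other sites of mouse 1, 44 sites of mouse 2 and 72 sites of mice 3 to 6. Bars are shares and lines exact 95% binomial intervals; A is the most frequent changed base in the immunoglobulin genes (52.9%), with an interval from 27.8 to 77.0%.

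The base next to a changed A or T was examined for AA or TA with the second base changed, or TT or TA with the first base changed, which is the same motif on the other strand. The codon decided this for 4 of 9 immunoglobulin missense sites at A or T, and 3 of the 4 held the motif. These were F207L of Ighm, and E73D and K42R of Ighv1-15, while W3G of Ighv1-15 did not. In the other sites of mouse 1 it was held by 15 of the 33 that could be decided (45.5%, exact 95% interval 28.1 to 63.6). In mouse 2 it was held by 6 of 10 (60%, 26.2 to 87.8) and in mice 3 to 6 by 10 of 18 (55.6%, 30.8 to 78.5). The interval of 3 of 4 runs from 19.4 to 99.4% and holds these shares. For Adam6b, I205R held the motif and S206T did not.

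By annotation, 13 of the 17 immunoglobulin sites were missense and 4 lay at splice regions or sites (23.5%, exact 95% interval 6.81 to 49.9), against 10 of 122 other sites of mouse 1 (8.20%, 4.00 to 14.6). The share was 21.7% in mouse 2 (10 of 46, 10.9 to 36.4) and 5.26% in mice 3 to 6 (4 of 76, 1.45 to 12.9). All 4 lay in the intron between leader and V exon, in Ighv1-15, Ighv1-21-1 and Iglv1. The table holds 0 synonymous calls in any gene, so the ratio of amino acid changes to silent changes, often used to study selection on antibodies, could not be formed. None of the 20 sites had an identifier of a variant database, as was so for all but 1 of the 122 other sites of mouse 1.

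Of 29 genes of the hypermutation and B-cell receptor machinery, including the uracil glycosylase gene Ung, the error-prone polymerase gene Polh, Cd79a, Cd79b and the constant genes Ighd, Ighg1 and Igkc, 0 had a call in any tumour. Of all 22406 protein-coding genes and immunoglobulin segments listed by RefSeq, 193 had one (0.861%), so that a list of this length would hold few or none. A gene without a call among the lines analysed is not shown to be unmutated.

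Within mouse 1 the deposited quality values moved with the immunoglobulin genes, and their part in the results was not tested. A quality score was given at 1 of 17 immunoglobulin sites (5.88%, exact 95% interval 0.149 to 28.7), F207L of Ighm. It was given at all 3 sites of Adam6b and at 86 of 122 other sites of mouse 1 (70.5%, 61.6 to 78.4). Mouse 2 had a score at 23 of 46 sites (50%, 34.9 to 65.1), and mice 3 to 6 at 25 of 76 (32.9%, 22.5 to 44.6). Only the interval of mice 3 to 6 overlaps that of the immunoglobulin sites. Heavy-chain V segments of a family are similar in sequence. Whether reads were placed on a neighbouring segment was not tested, and the assignment of a site to Ighv1-15, Ighv1-18 or Ighv1-21-1 is uncertain.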

How the data were processed

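Exome libraries were made from 11 tumours and 6 controls of 6 mice. Capture used Agilent SureSelect baits, and the labels' protocols call the kit a human one, so which mouse exons it caught is uncertain. The submitters' processing notes name BWA, GATK and the human build GRCh38, without versions. Per the file headers each call comes from Strelka. The sources used here do not state the filters. The authors deposited allele fractions from 0 to 1 for tumour and control, printed here as percentages, and for each call a quality score and a tier score of 1 or 2. Positions are printed as deposited. All 9 genes matched the RefSeq table of GRCm38.p6, and 17 of 20 sites lay inside their own gene's span there. In the copy analysed 12 of its 402 lines are blank, and they are not used here. Depth cells are empty.

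Samples were grouped by their titles, and rows were matched to samples by the description label. The members, lists and tests were chosen with earlier results of these data known. All 9 genes are named. A gene of the list for the hypermutation machinery is not reported here. The analysis used Python 3.11.15, pandas 2.3.3, SciPy 1.17.1 and Biopython 1.88. Distinct sites were counted by position and alleles. Intervals are exact (Clopper-Pearson) at 95%. The alternatives were other allele-fraction minimums, tier, control reads, neighbour distances, merged sites and left-out tumours or segments. Functions for codons and spacing were tested on simulated data. No genome was used, so bases around sites are given only where the codon fixes them.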

Additional observations from a re-analysis of the deposited data

Results flagged for a closer look

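The number of immunoglobulin and Adam6b sites per mouse was 20 in mouse 1, and the next highest of the 6 mice had 0. Mouse 1 lay far from the others for their range. The genes were chosen because of this pattern, and 5 equal values of 0 make the chance rate of about 1 in 20 inapplicable.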

How the results depend on the processing

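The 20 sites of mouse 1 became 35 when calls were counted in place of sites and 3 at an allele fraction of at least 0.2, and stayed between 15 and 18 at a fraction of at least 0.1, with a control fraction of 0 only, in tier 1 only, without tumour 2, or without Adam6b. Sites with a neighbour numbered 16 within 100 bases, 10 within 50 bases and 6 within 10 bases, and 10 to 16 when either tumour of mouse 1 was left out. The median allele fraction in tumour 1 (13.0%) was 9.93% without Adam6b and 10.5% in tier 1 only or with sites within 10 bases averaged. In tumour 2 (14.1%) it was 16.4% over shared sites, 13.2% without Adam6b and 12.1% in tier 1 only. The moves follow from which sites each setting keeps. The share of sites in both tumours and the transition share stayed within their interval or within 1.5 times under each alternative run. So did the share of changes at A on the coding strand (its alternatives were chosen after seeing the data) and the median difference between tumours. The median difference also kept its sign. The transition share (47.4%) did not stay on 1 side of 50%. It was 43.8% with sites within 10 bases as 1 event and 53.3% at a fraction of at least 0.1. No paired analysis was possible because no result comes from a test that a block could enter; the differences between tumours at each site are a description. Unknown depth and the small number of sites limit each share.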
